A study of Apis mellifera with 3 samples.

Results

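Major royal jelly protein 5 (Mrjp5), major royal jelly protein 6 (Mrjp6), major royal jelly protein 8 (Mrjp8), major royal jelly protein 9 (Mrjp9) and apisimin belong to the group of proteins that honeybee workers secrete into royal jelly, and are often set apart from its most abundant proteins. They were followed here in 3 RNA-seq libraries. Their transcript sequences were found by the words of the best protein match, "major royal jelly protein" followed by 5, 6, 8 or 9, or "apisimin", which gave 15 of the 21441 sequences read in at least 1 library. Of these 15, 2 matched Mrjp5, 1 each matched Mrjp6, Mrjp8 and Mrjp9, and 10 matched apisimin. All 15 are accounted for below, of which 10 had at least 10 reads over the 3 libraries and 12 were read in every library. The choice used names only and no measured value, although earlier results of these data were known when it was made.

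The RNA came from pools of 30 full-sister bees of the strain Apis mellifera carnica Pollmann, whose mothers were queens inseminated artificially with sperm of a single drone. One pool was labelled winter bee with an age of day 3 after emergence, one spring bee with day 6 and one retired bee with day 9, and none carried a further treatment. Each pool gave 1 library, so n = 1 in each group, no difference below has a replicate check, and season, labelled age and task cannot be told apart. The labels name the hypopharyngeal glands, the paired head glands that make royal jelly in nurses, while the design text speaks of pooled heads. The study's title gives the regulation of gland activity over winter as its question.

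The royal jelly proteins descend from the yellow family of insect proteins and are encoded by neighbouring genes. In nurse bees they are the bulk of the protein in royal jelly, the food of larvae and the queen. Mrjp5 carries a region of short repeats. Mrjp8 and Mrjp9 are also known from bee venom, where they are allergens, and Mrjp9 is regarded as the member nearest to the yellow ancestor. Apisimin is a small peptide, rich in serine and valine, that binds Mrjp1 in royal jelly.

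The libraries held 3.85 M, 3.29 M and 3.18 M uniquely mapped reads in the order winter, spring, retired, and the deposited tables gave reads, RPKM (reads scaled to the sequence length in kilobases and to the library size) and the fraction of each sequence covered. For a length of 1 kb, 3 reads were worth 0.780, 0.912 and 0.944 RPKM. Markers of nerve cells were present in all libraries, with summed RPKM of 2005, 1624 and 1665 over 30 sequences, so differences below cannot be placed in gland cells. Muscle markers summed to 724, 580 and 777 RPKM over 36 sequences and fat body markers to 411, 345 and 319 RPKM over 14. In such pools fewer cells of a type and less RNA per cell cannot be told apart. Intervals below are 95% intervals from read counts and cover counting error only, since PCR copies of 1 molecule are counted as separate reads.

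The 5 proteins together took 0.756%, 1.01% and 2.50% of all reads in the order winter, spring, retired. Mrjp5 was higher in the spring than in the winter library and higher again in the retired library, Mrjp6 was lowest in the spring library, Mrjp9 had the order of Mrjp5 at a low level, on 19 to 103 reads, and Mrjp8 and apisimin differed by less than 2-fold between any pair of libraries.

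**Figure D1:**
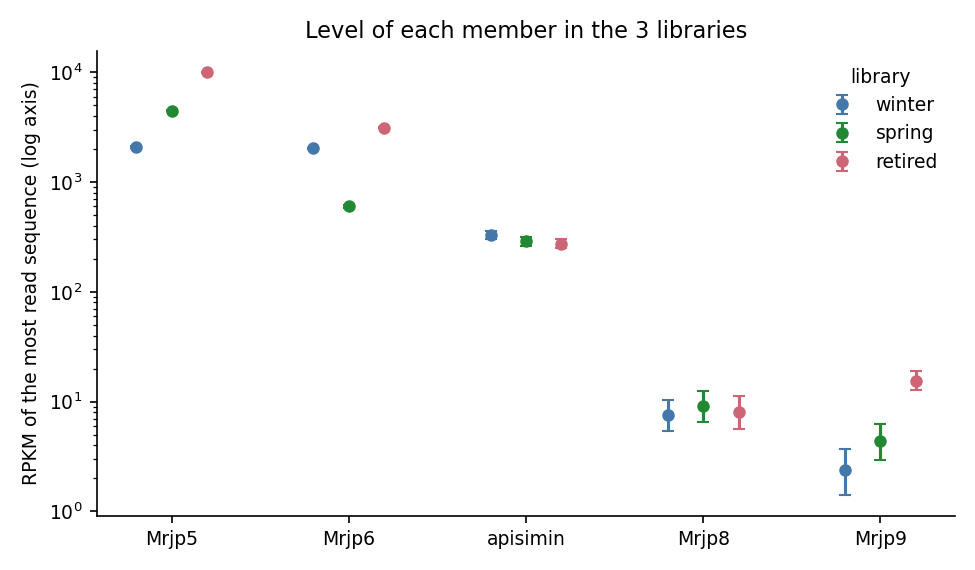
RPKM of the most read sequence of each protein on a log axis, by library, with 1 library per group. Bars are exact 95% Poisson intervals for reads. Mrjp5 stands at 2086, 4476 and 10017 RPKM, Mrjp6 is lowest, at 600, in the spring library, and Mrjp9 ends above Mrjp8 in the retired library.

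Mrjp5 was the most abundant of the 5, and it had more summed reads than some of the other numbered proteins. In the retired library it had 63241 reads, against 48642 for Mrjp4 and 31627 for Mrjp7, and in the winter library 15948, against 14463 for Mrjp7. These sums are not scaled to length. By summed RPKM Mrjp5 had 10024 in the retired library, under the 11788 of Mrjp4 and above the 8849 of Mrjp7. In the winter library Mrjp5 had 2087 by summed RPKM, under the 3457 of Mrjp7. Its main sequence (TC12344, 1987 bases) held 15947, 29244 and 63236 reads in that order, or 2086, 4476 and 10017 RPKM. The retired library was thus the highest and the winter library the lowest, with no overlap of the counting intervals. By RPKM it ranked 22nd among the winter sequences, 13th among the spring sequences and 6th among the retired sequences. With the 2 sequences summed, Mrjp5 was 2.15-fold higher in the spring than in the winter library (2.11 to 2.19) and 2.24-fold higher in the retired than in the spring library (2.21 to 2.27). From winter to retired the ratio was 4.80 (4.72 to 4.89). The second sequence (NP9548365, 237 bases), whose best match is an Mrjp5-like protein of the dwarf honeybee Apis florea, had 1 read, 1 read and 5 reads and changed none of these sums visibly.

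One further sequence (TC16893, 1027 bases) had the abbreviated match MRJP5 and so was not among the members. It held 2214, 4279 and 8303 reads, and its order of libraries was that of the main Mrjp5 sequence. It was covered over fractions of only 0.28, 0.26 and 0.40 of its length, so its level is uncertain. Its ratios were 2.26 (2.15 to 2.38) for spring over winter and 2.01 (1.94 to 2.08) for retired over spring. With its reads added, Mrjp5 was 2.16-fold higher in the spring than in the winter library and 2.21-fold higher in the retired than in the spring library.

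Mrjp6 is a close family member encoded beside Mrjp5. Its single sequence (TC12389, 1530 bases) held 11927, 3016 and 15270 reads in the order winter, spring, retired, or 2026, 600 and 3141 RPKM. The spring library was the low one, and the winter and retired libraries lay on the same side of it. Mrjp6 was 3.38-fold lower in the spring than in the winter library (3.25 to 3.52), 5.24-fold higher in the retired than in the spring library (5.04 to 5.45) and 1.55-fold higher in the retired than in the winter library (1.51 to 1.59).

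Mrjp8 and Mrjp9 were read at low levels throughout. Mrjp8 (TC12413, 1329 bases) had 39, 40 and 34 reads, or 7.63, 9.15 and 8.05 RPKM in the order winter, spring, retired. The 3 intervals overlapped, and every ratio of Mrjp8 had an interval that included 1. For retired over winter it was 1.06 (0.647 to 1.72), so a difference inside that interval was not detectable at this depth. Mrjp9 (TC12355, 2088 bases) had 19, 30 and 103 reads, or 2.36, 4.37 and 15.5 RPKM, and stood highest in the retired library. The ratio for spring over winter was 1.85 with an interval that just missed 1 (1.01 to 3.47), and the ratio for retired over spring was 3.55 (2.35 to 5.53). From winter to retired Mrjp9 was 6.57-fold higher (3.999 to 11.3), on 103 reads against 19. With 5 RPKM added to each value these ratios were 1.27, 2.19 and 2.79.

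In the venom gland Mrjp8 and Mrjp9 occur with melittin, the main venom peptide. Melittin had 2 reads in the winter library and 0 in the spring and retired libraries, all under the floor of 3 reads, so no difference could be read from it, and no sequence matched apamin, another venom peptide. Secapin sequences summed to 15.6, 6.07 and 12.0 RPKM. The list of 29 sequences that also took in every match with the word venom summed to 736, 1340 and 999 RPKM, and it includes enzymes such as acid phosphatases and dipeptidyl peptidases. In retired over winter its median log2 ratio was 0.73 over 10 sequences with at least 10 RPKM, of which 5 were at least 2-fold higher and 0 lower, beside a median of -0.26 and 157 of 11955 higher over all sequences. In retired over spring its median was -0.04, with 1 of 10 at least 2-fold higher. The part of venom gland RNA in the Mrjp9 values was not tested.

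Apisimin was spread over 10 sequences. Summed, it had 1145, 824 and 788 reads in the order winter, spring, retired, the winter library being the highest. It was 1.19-fold lower in the spring than in the winter library (1.08 to 1.30), and the ratio for retired over spring was 0.990 (0.896 to 1.09). Setting the median ratio over 9803 sequences to 1 brought the ratio for spring over winter to 0.997 and that for retired over winter from 0.834 to 0.992. The lower apisimin value was thus no larger than the median shift of those sequences.

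The reads lay mostly on 2 apisimin sequences. TC22643 (474 bases) had 603, 452 and 415 reads and TC14282 (971 bases) had 517, 323 and 327, and both were highest in the winter library. TC22389 (517 bases) had 7, 25 and 13 reads and BP539979 (287 bases) had 5, 11 and 12. Of their ratios, only that of TC22389 for spring over winter, 4.18 (1.76 to 11.4), had an interval without 1. TC22383 had 6, 4 and 4 reads and DB772600 had 3, 5 and 5, which cannot be ordered at such counts. The remaining 4 had between 0 and 6 reads in a library. Over the 8 sequences other than TC22643 and TC14282 there were 25, 49 and 46 reads, a small part of the protein's total.

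**Figure D2:**
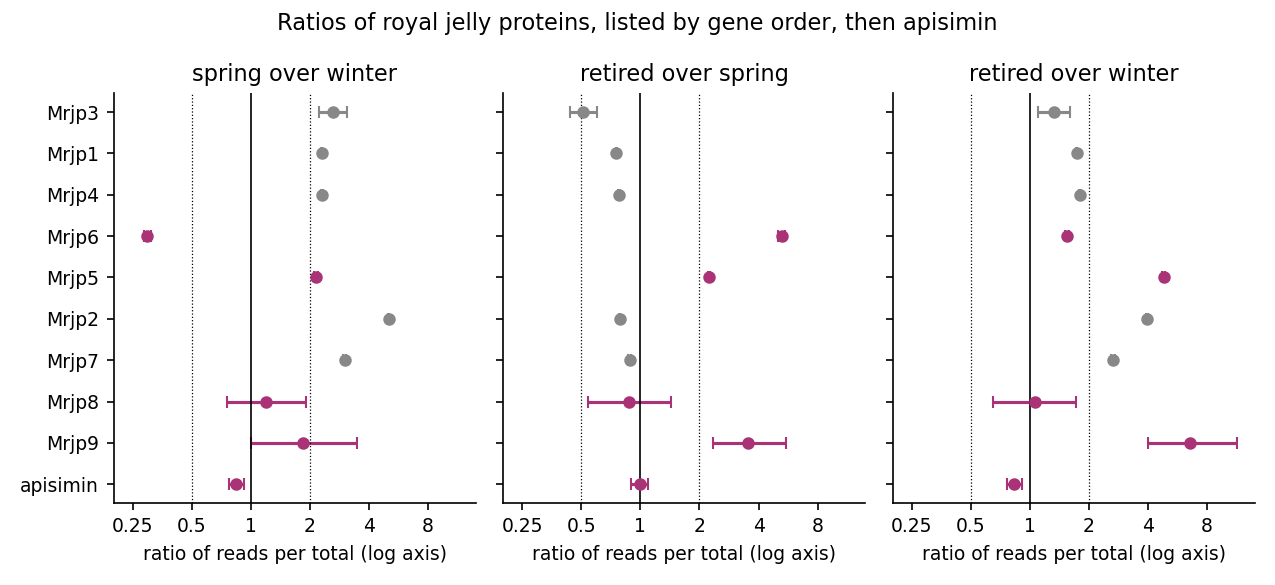
Ratio of summed reads per library total in each comparison, on log axes, for the royal jelly proteins in the order of their genes and then apisimin. Purple points are Mrjp5, Mrjp6, Mrjp8, Mrjp9 and apisimin, grey points are Mrjp1, Mrjp2, Mrjp3, Mrjp4 and Mrjp7, bars are exact 95% intervals and dotted lines mark 2-fold. In retired over spring the 5 grey points lie below 1, while Mrjp6, Mrjp5 and Mrjp9 lie at 5.24, 2.24 and 3.55.

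Counted at 2-fold, 1 of the 5 proteins was higher and 1 lower in spring over winter, where 2.62% and 5.58% of the 8764 matched proteins with at least 10 reads in the pair passed in these directions. In retired over spring 3 were at least 2-fold higher and 0 lower, against 2.82% and 2.81% of 8587 proteins. In retired over winter 2 were at least 2-fold higher and 0 lower, against 1.96% and 5.98% of 8757. By counting interval, 2 lay above 1 and 2 below in spring over winter (background 8.28% and 28.8%), 3 above and 0 below in retired over spring (7.64% and 11.0%), and 3 above and 1 below in retired over winter (6.28% and 29.5%). Counting intervals are narrower for proteins with more reads, and this background was not matched for read number. After rescaling to a median ratio of 1, or to totals without royal jelly reads, Mrjp9 also passed 2-fold in spring over winter, at 2.19 and 2.18. The median log2 ratio over these proteins was -0.21, -0.05 and -0.23, and that of the 5 was 0.26, 1.16 and 0.63. With only 5 proteins and 1 library per group these counts describe the libraries. The 3 comparisons share the same 3 libraries, so none of them is independent of the others, and retired over winter follows from the other comparisons.

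The 5 other numbered proteins, Mrjp1, Mrjp2, Mrjp3, Mrjp4 and Mrjp7, are called nurse proteins here as a list only. Mrjp3 had 218, 486 and 240 uniquely mapped reads in the order winter, spring, retired, fewer than Mrjp5, Mrjp6 or apisimin in each library. The Mrjp3 reads were spread over 13 sequences, and reads that match several near-identical sequences are not counted. The part of such reads in the low Mrjp3 count was not tested. The 45 sequences of the 5 nurse proteins summed to 237366 winter, 652786 spring and 491759 retired reads, so the spring library was the highest. For every 100 reads of these proteins Mrjp5 had 6.72 in winter bees, 4.48 in spring bees and 12.9 in retired bees. Relative to them Mrjp5 therefore had a ratio of 0.667 in spring over winter (0.654 to 0.680) and was 2.87-fold higher in retired over spring (2.83 to 2.91). The Mrjp5 difference between the winter and spring libraries was thus smaller than that of the summed nurse proteins. Singly, their ratios of spring over winter were 2.30 for Mrjp1, 5.04 for Mrjp2, 2.61 for Mrjp3, 2.30 for Mrjp4 and 3.01 for Mrjp7. Mrjp5, at 2.15, was therefore close to Mrjp1 and Mrjp4 and furthest from Mrjp2. Mrjp6 had 5.02, 0.462 and 3.11 reads per 100, a relative value 10.9-fold lower in spring over winter (10.4 to 11.3) and 6.72-fold higher in retired over spring (6.46 to 6.99).

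Apisimin, Mrjp8 and Mrjp9 each departed from the nurse proteins in at least 1 comparison. Apisimin had 0.482, 0.126 and 0.160 reads per 100, which was 3.82-fold lower in spring over winter (3.49 to 4.18). Against Mrjp1 alone, its binding partner, apisimin had 1.00, 0.368 and 0.483 reads per 100. Relative to the nurse proteins Mrjp8 was 2.68-fold lower in spring over winter (1.73 to 4.17), while the interval of Mrjp9 included 1 (0.323 to 1.02). In retired over spring Mrjp9 was 4.56-fold higher relative to them (3.03 to 6.84), and the interval of Mrjp8 included 1 (0.714 to 1.78). These within-library ratios do not depend on how libraries are scaled to each other.

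**Figure D3:**
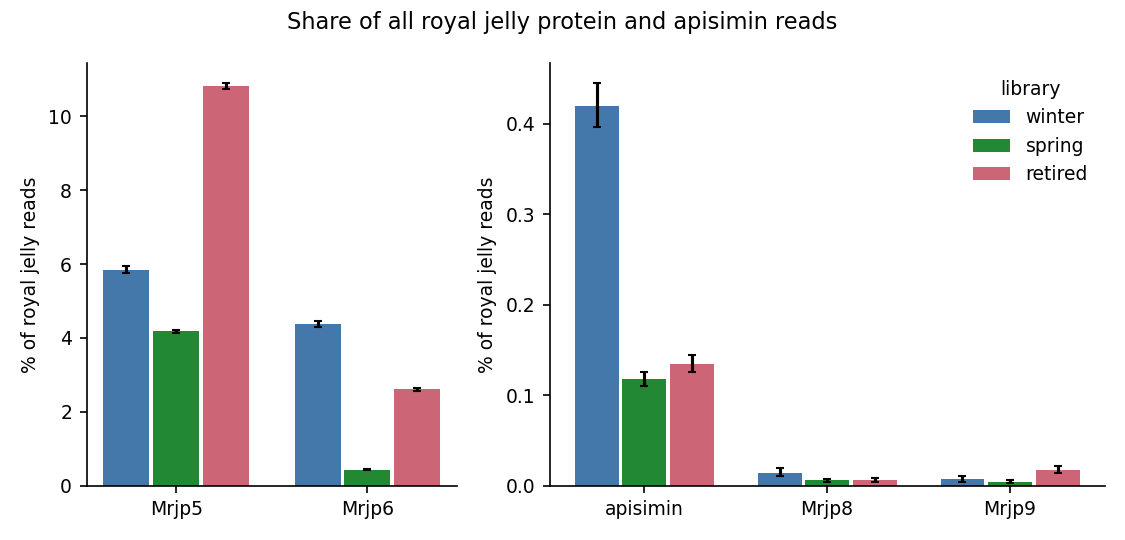
Share of all royal jelly protein and apisimin reads taken by each protein, in percent, with Wilson 95% intervals. The left panel has Mrjp5 and Mrjp6, and the right panel, on its own scale, apisimin, Mrjp8 and Mrjp9. Mrjp5 takes 10.8% in the retired library, Mrjp6 has 0.431% in the spring library, and apisimin is highest in the winter library at 0.420%.

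Within all 64 royal jelly protein and apisimin sequences, Mrjp5 held 5.85% of the reads in winter bees (5.76 to 5.93%), 4.18% in spring bees (4.13 to 4.22%) and 10.8% in retired bees (10.7 to 10.9%). The 64 include the abbreviated MRJP5 sequence, and with it counted as Mrjp5 these shares were 6.66%, 4.79% and 12.2%. They also include royal jelly matches without a number, of which TC18087 had the most reads, at 3444, 9330 and 3787. Mrjp6 held 4.37%, 0.431% and 2.61%. The 5 members together made up 10.7%, 4.74% and 13.6% of royal jelly reads, with the spring share the lowest. Apisimin held 0.420%, 0.118% and 0.135%, and Mrjp8 and Mrjp9 each held less than 0.02% in every library.

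The order of the members among themselves was the same in the winter and spring libraries, with Mrjp5 first, then Mrjp6, apisimin, Mrjp8 and Mrjp9 by RPKM of the most read sequence. In the winter library Mrjp5 and Mrjp6 had overlapping intervals (2053 to 2118 and 1990 to 2063 RPKM), and they were the only neighbours in any library whose intervals overlapped. In the spring library Mrjp5 stood 7.47 times above Mrjp6, and in the retired library 3.19 times. Per 100 Mrjp5 reads there were 74.8, 10.3 and 24.1 Mrjp6 reads. In the retired library Mrjp9 changed places with Mrjp8. It had 303 reads per 100 Mrjp8 reads there, against 48.7 in the winter library, a ratio 6.22 times as high (3.02 to 12.9).

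In a gene table of the Amel_HAv3.1 assembly, used for names and neighbours only, the genes of all 9 numbered proteins lie along 1 linkage group in the order Mrjp3, Mrjp1, Mrjp4, Mrjp6, Mrjp5, Mrjp2, Mrjp7, Mrjp8, Mrjp9. Mrjp6 and Mrjp5 are direct neighbours, with 0 genes between them, and so are Mrjp4 and Mrjp6. The ratios of spring over winter nevertheless went from 2.30 for Mrjp4 to 0.296 for Mrjp6 and 2.15 for Mrjp5. In retired over spring they were 0.781, 5.24 and 2.24. At the other end Mrjp7 and Mrjp8 are neighbours, with ratios of retired over winter of 2.65 and 1.06. The apisimin gene (LOC406093) lies on another linkage group. Among the member sequences Mrjp9 alone carries a process term in the deposited annotation, defense response to bacterium.

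How much of a sequence was covered differed among the members. A single read covered 49 bases in 99.98% of the sequences with 1 read. Mrjp6 was covered over fractions of 0.798, 0.794 and 0.802 of its length although its reads lay between 3016 and 15270. Mrjp5 was covered over 0.612, 0.639 and 0.670 in spite of at least 15947 reads. Mrjp9 went from 0.305 to 0.397 and 0.530 with its reads, and Mrjp8 stood at 0.584, 0.619 and 0.628.

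The leading apisimin sequence TC22643 was covered over only 98 or 99 of its 474 bases in every library, a fraction of 0.207 in the winter library. Other sequences of like length and reads, within 0.8 to 1.25 times the length and a factor of 2 in reads, had a median coverage of 0.972 there, and 1 of those 228 was covered less. By the same rule TC14282 had 0.64 against 0.92 in the winter library. Mrjp5 had 0.612 there against 0.820, with 0 of 7 covered less. Mrjp9 in the retired library had 0.530 against 0.720, with 92 of 865 covered less. Mrjp6 and Mrjp8 lay above the median of like sequences in some libraries and below it in others. Reads that match several near-identical sequences are not among uniquely mapped reads. Levels of the members per length are therefore uncertain where coverage is low, and the part of such reads in the differences was not tested. Per covered length, apisimin TC22643 stood at 1599, 1388 and 1319 RPKM and Mrjp6 at 2539, 756 and 3917. On that scale apisimin was above Mrjp6 in the spring library, which turns their order.

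**Figure D4:**
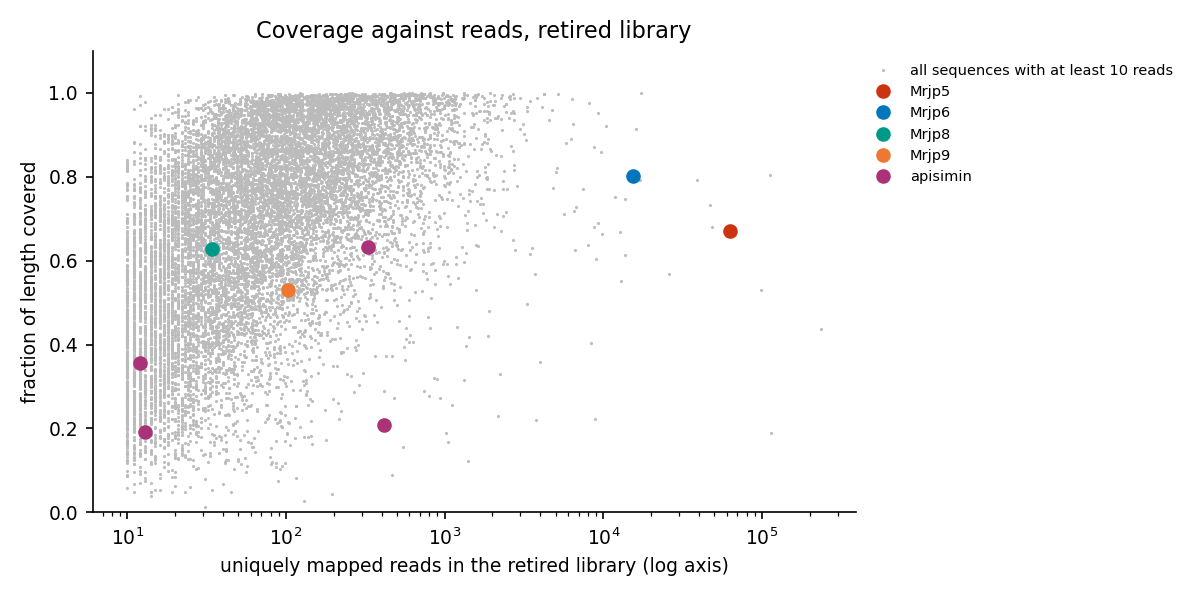
Fraction of each sequence covered by reads against its uniquely mapped reads in the retired library, on a log x axis. Grey dots are the 13421 sequences with at least 10 reads and coloured dots the members among them. The leading apisimin sequence, at 415 reads and 0.209 coverage, lies far below most sequences with as many reads.

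The sequences closest in course were sought among 2000 described sequences with at least 50 RPKM in a library, by the distance between pairs of log2 ratios of RPKM + 1 over the 3 libraries. Nearest to Mrjp5 was the abbreviated MRJP5 sequence (distance 0.17), followed by a hypothetical protein (TC13776, 0.31) and an uncharacterized one (TC16693, 0.41), and 4 of the 2000 lay within 0.5. Nearest to Mrjp6 was abaecin, an antibacterial peptide (TC23893, distance 0.41), at 52.8, 18.7 and 84.2 RPKM, followed by fatty acyl-CoA reductase 1, which makes fatty alcohols (TC14245, 0.55), at 85.9, 36.4 and 181 RPKM. The third was an uncharacterized protein (TC15979, 0.72). Only abaecin lay within 0.5 of Mrjp6, and its values rest on 76, 23 and 100 reads in the order winter, spring, retired. Nearest to Mrjp9 was esterase A2 (TC14641, 0.30) at 9.64, 19.7 and 67.1 RPKM, with 2 sequences within 0.5. Next came TC20120 (0.31), which matches the same hypothetical protein as TC13776, and the abbreviated MRJP5 sequence (0.79). The courses of Mrjp8 and apisimin were common, with 787 and 1339 of the 2000 within 0.5. Closest to Mrjp8 were a GTPase-activating protein of ADP-ribosylation factor (TC16779), a YIF1B-like protein (TC19218) and a hypothetical protein (TC15203). Closest to apisimin were a Rap1 GTPase-activating protein (TC19754) and 2 hypothetical proteins (TC13956 and TC12975). Likeness over 3 libraries is a description only.

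Of the enzymes that bees of older age add to nectar, alpha-glucosidase and alpha-amylase were lowest in the spring library. Alpha-glucosidase, which splits sucrose, summed to 7883, 1093 and 15493 RPKM over 9 sequences in the order winter, spring, retired. Alpha-amylase summed to 662, 24.2 and 1039 RPKM over 2 sequences, and glucose oxidase to 5967, 5807 and 9014 RPKM over 4. For spring over winter the median log2 ratio of glucose oxidase was -0.04, less of a fall than the -0.26 of all sequences, so rescaling to a median ratio of 1 turns its direction. The enzyme list had a median log2 ratio of -0.26 for spring over winter and 2.10 for retired over spring, over 9 and 10 sequences with at least 10 RPKM, beside -0.26 and -0.02 over all sequences. Of these, 4 of 9 were at least 2-fold lower and 0 higher in spring over winter, and 5 of 10 higher and 0 lower in retired over spring, beside 573 of 12038 lower and 207 of 11413 higher over all sequences. Sequences for entry of secreted proteins into the endoplasmic reticulum had medians of 0.82 and -0.45 over 18 sequences. For retired over winter their median was 0.44, beside -0.26 over all sequences. Mrjp5 and Mrjp6 were highest in the retired library, where these secretion sequences lay by median below the spring library and above the winter library.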

How the data were processed

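Messenger RNA was selected on oligo-dT beads, fragmented, amplified by PCR and sequenced on an Illumina HiSeq 2000, per the labels' protocols. The authors deposited 1 table per library with the count of uniquely mapped reads, sequence length, coverage (the covered fraction of the length) and RPKM per transcript sequence, per the file headers. In every sequence the deposited RPKM equalled reads over length and library total within a relative difference of 1e-06. Which aligner, counter and transcript set were used is not stated. A sequence missing from a table was taken as 0 reads.

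The 3 tables were merged by identifier. Reads were summed per protein, and ratios of reads per library total carry exact conditional binomial (Clopper-Pearson) 95% intervals. Ratios between proteins within a library were compared between libraries, over 8 pairs. The resulting ratios of ratios have exact conditional or, for large counts, log-normal intervals. With 1 library per group no test was possible, and none of these intervals covers differences between bees. Background percentages use all matched proteins with at least 10 reads in the pair. The folds were tested on simulated data. Members, lists and rules were chosen with earlier results of these data known. All members are named, single sequences from 10 reads over the 3 libraries upward with values, and 3 sequences of nearest course were sought per member. Alternatives were rescalings, TPM, pseudocounts, minimum RPKM, sequence choice and thresholds. No transcript or protein sequences were used here. The software was pandas 2.3.3, scipy 1.17.1, numpy 2.4.6 and matplotlib 3.10.9, run in Python 3.11.15.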

Additional observations from a re-analysis of the deposited data

How the results depend on the processing

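No paired analysis was possible because each group has 1 library. Of 161 alternative ratios over 11 settings, 143 stayed within the counting interval of the reported ratio, 18 moved outside it and 0 changed direction past an interval that excluded 1. Many of the 143 could not move, so this count does not measure robustness. Choices among sequences leave Mrjp6, Mrjp8 and Mrjp9 unchanged, since each rests on a single sequence, and the abbreviated sequence touches Mrjp5 only. The intervals of Mrjp8 and Mrjp9 are also wide, as for Mrjp8 in spring over winter (0.753 to 1.92). Rescaling to a median ratio of 1 and totals without royal jelly reads each made 2 proteins at least 2-fold higher in spring over winter, since Mrjp9 went to 2.19 and 2.18. A 1.5-fold threshold also gave 2 there, and 3 higher, with Mrjp6 at 1.55, in place of 2 in retired over winter. A 4-fold threshold gave 0 higher and 0 lower in spring over winter and 1 higher, Mrjp6, in retired over spring. The rescalings shifted every log2 ratio by 0.24 in spring over winter, and by 0.25 and 0.19 in retired over winter. Over all settings Mrjp5 ranged from 2.14 to 2.54 and Mrjp6 from 2.86-fold to 3.38-fold lower in spring over winter. A pseudocount of 5 RPKM brought Mrjp9 to 2.19 for retired over spring and 2.79 for retired over winter, because its level is near that pseudocount. Adding the abbreviated MRJP5 sequence, dropping matches to other bee species and levels per covered length were chosen after the data were seen. With 19 to 103 reads for Mrjp9 and 34 to 40 for Mrjp8, depth limits both.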
